A study of Salmo salar with 12 samples.

Results

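The regions described here are 686 of 94780 ATAC-seq peaks in the liver of female Atlantic salmon (Salmo salar), and they were the peaks lastingly more open after T1. They were chosen by their own values. In each of them all 9 libraries of T2, T3 and T4 had a higher deposited log2(CPM + 1) than all 3 libraries of T1, and the mean of the 6 T3 and T4 libraries exceeded the T1 mean by at least 0.5. CPM is the number of reads in a peak per 1000000 reads in all peaks of the library. The order of values alone was met by 835 peaks (0.881% of all peaks), and both conditions by 686 (0.724%). The other 149 had a smaller difference. Since these values selected the peaks, every difference from T1 given below is a description and supports nothing by itself.

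The fish belonged to 1 management group kept in tanks, and a long-light photoperiod was used to bring on sexual maturation. T1 was sampled just before the long light began, and T2, T3 and T4 at successive times under it, with 3 biological replicates per time point and 12 libraries in all. No group was kept without long light up to the later time points. The effects of long light, of maturation and of elapsed time therefore cannot be told apart. The nuclei came from frozen whole liver, so a change in the share of a cell type cannot be told apart from a change in accessibility within a cell.

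ATAC-seq uses the transposase Tn5, which inserts sequencing adapters where DNA is not covered by nucleosomes or tightly packed chromatin. Reads therefore gather at promoters, enhancers and other regulatory DNA to which transcription factors have access. In egg-laying female fish the liver is the source of vitellogenin and egg envelope proteins, which it makes under the control of estrogen from the ovary as the eggs begin to grow. The tables used here identify each peak by a number without a position, so no gene, promoter or sequence is assigned to a peak.

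Reads in peaks ranged from 4199681 (T4 replicate 2) to 31312069 (T1 replicate 3) per library. Libraries also differed in how far their peaks spread. Over all peaks the SD of log2(CPM + 1) was 1.24 in T1 replicate 1, 1.21 in T3 replicate 3, 1.28 in T4 replicate 1 and 1.03 in T4 replicate 2, and 1.38 to 1.48 in the other 8 libraries. The same 4 libraries had the highest medians over all peaks, from 2.72 to 3.07, against 2.45 to 2.59 in the others. Their lower quartiles were 1.91 to 2.40, against 1.51 to 1.72, so that weak peaks read higher in them, and T4 replicate 2 stood farthest apart. The part of these spreads in the choice of the 686 peaks was not tested. Pearson's r over all peaks lay between 0.671 and 0.956 for 12 pairs of the same time point and between 0.635 and 0.952 for 54 pairs of different time points.

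The set as a whole was higher at T2 than at T1 and lay at a similar level at T3 and T4. The mean log2(CPM + 1) over the 686 peaks was 2.08, 2.01 and 1.98 in the T1 libraries, 3.06, 2.88 and 2.63 at T2, 2.67, 2.91 and 2.77 at T3, then 2.81, 3.03 and 2.86 at T4. By time point it came to 2.03 ± 0.05 for T1, 2.85 ± 0.22 for T2, 2.79 ± 0.12 for T3 and 2.90 ± 0.11 for T4 (SD, n = 3 each). The 3 later time points overlapped one another, while T1 lay below them all as the choice of the peaks required. On the CPM scale the median peak had 2.84 CPM at T1 but 6.41 at T2, 5.74 at T3, then 6.29 at T4.

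The peaks took up a small part of each library. Their share of all reads in peaks was 0.280% to 0.296% for T1, 0.485% to 0.728% for T2, 0.496% to 0.623% for T3 and 0.559% to 0.608% for T4. T2 replicate 1 had the highest share and T2 replicate 3 the lowest of the later libraries, so T2 held both ends of the range.

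**Figure D1:**
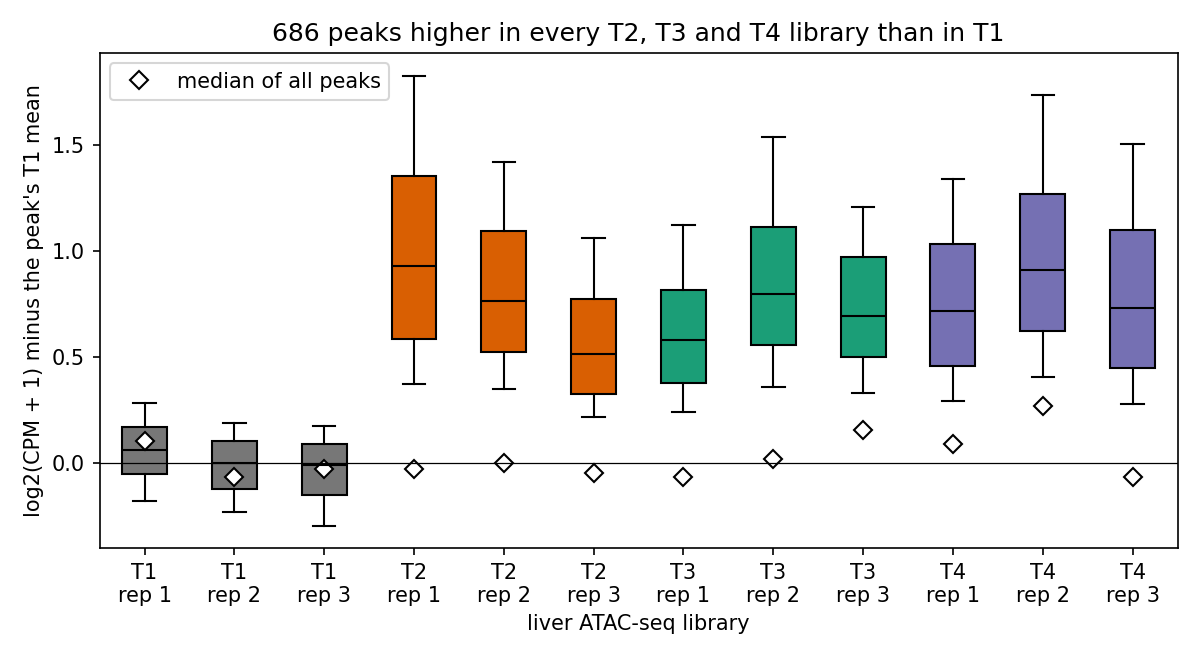
Accessibility of the 686 peaks in each of the 12 libraries, as log2(CPM + 1) minus the peak's own T1 mean. Boxes span the quartiles with the median as a line, whiskers reach the 10th and 90th percentiles, and diamonds mark the median over all peaks. The medians of the set lie between 0.52 and 0.93 in the 9 later libraries, and those of all peaks between -0.07 and 0.27, with T4 replicate 2 the highest of these.

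Measured from each peak's T1 mean, the median of the set was 0.93, 0.76 and 0.52 in the T2 libraries, 0.58, 0.80 and 0.69 at T3, then 0.72, 0.91 and 0.73 at T4. The median over all 94780 peaks in the same 9 libraries ran between -0.07 and 0.27. It was highest in T4 replicate 2 (0.27) and T3 replicate 3 (0.15), so part of the height of those libraries in the set was shared with peaks in general. T2 replicate 1 and T3 replicate 2 were high in the set but not over all peaks, where their medians were -0.03 and 0.02.

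Most of the differences were modest and the values of T1 and the later libraries lay close. The mean over T3 and T4 exceeded the T1 mean by a median of 0.76, with quartiles of 0.63 and 0.93 and a highest value of 2.82. Of the 686 peaks, 132 had a difference of at least 1, 13 of at least 1.5 and 4 of at least 2. In linear CPM the ratio of the T3 and T4 mean to the T1 mean had a median of 2.05. Over all peaks the median difference was 0.09, and 59.8% of them had a higher mean in T3 and T4 than in T1.

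The distance between the lowest of the 9 later values and the highest T1 value shows how narrowly the order was met. Its median was 0.10. It was under 0.1 in 347 peaks, at least 0.5 in 20 and at least 1 in a single peak, peak98942. The lowest later value most often came from T2 replicate 3 (169 peaks), T3 replicate 1 (116) or T4 replicate 1 (100), and the highest T1 value from T1 replicate 1 (308 peaks). T1 replicate 1 was the T1 library with the smallest spread over all peaks.

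The minimum difference of 0.5 also cut through a continuous range. Just inside it lay peak70573 at 0.5001, peak39506 at 0.5015 and peak76212 at 0.5023. Just outside it, with the order of values met, lay peak38119 at 0.4998, peak24757 at 0.4991 and peak10336 at 0.4976. Peak24757, outside the set, had 4.00 to 5.01 in the 9 later libraries against 3.59 to 3.86 in T1.

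The set ranged from weak to strong peaks, but its upper levels lay below those of all peaks. The mean of the 12 libraries had a median of 2.56 (range 0.70 to 5.81), against 2.58 over all peaks and 3.30 over the 1219 peaks of the opposite kind (1.29% of all peaks), whose 9 later values all lay below T1 with a T3 and T4 mean at least 0.5 lower. In T1, 97 of the 686 peaks had a mean under 1 CPM, 259 had 1 to under 3 CPM, 274 had 3 to under 10 CPM, and 56 had 10 CPM or more. Most members were thus already measurable before long light. Counts were at least 10 in every library for 596 peaks (86.9%), against 79898 of all 94780 peaks. The lowest count of the 12 libraries had a median of 24 in the set.

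Only 3 members had no more than 3 reads in each T1 library. The clearest was peak98942, with 0, 1 and 1 reads at T1, 112, 82 and 78 at T2, 133, 89 and 31 at T3, then 28, 12 and 308 at T4. Every later library held more reads than all T1 libraries together, and T4 replicate 3 was the highest. Scaled to library size, T2, T3 and T4 together had 192 times the level of T1, with a 95% exact interval of 52.9 to 1586 that covers counting error only, since 2 reads made up the T1 value.

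The other members of this kind were thin at every time point. Peak52752 had 1, 2 and 3 reads at T1, 14, 9 and 17 at T2, 7, 10 and 6 at T3, then 19, 32 and 5 at T4. Peak62185 had 2, 1 and 2 reads at T1, 14, 8 and 4 at T2, 13, 3 and 13 at T3, then 4, 23 and 26 at T4. In both, T4 replicate 2, the shallowest library, had the highest log2(CPM + 1), at 3.11 and 2.70, and several later libraries had as few as 3 to 7 reads.

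The 6 peaks with the largest difference between the T3 and T4 mean and the T1 mean were peak65041 (2.82), peak98942 (2.55), peak14200 (2.23), peak38158 (2.04), peak39848 (1.75) and peak68250 (1.70). Peak65041 had log2(CPM + 1) values of 1.56, 1.29 and 1.92 at T1, 4.69, 3.44 and 3.01 at T2, 3.96, 5.03 and 2.78 at T3, then 4.25, 4.55 and 5.89 at T4. Of these 6 peaks it alone had a T4 mean more than 0.5 above both the T2 and the T3 mean, while its T3 and T4 values still overlapped. Peak98942 had 0, 0.07 and 0.05 at T1, 2.57, 2.53 and 2.20 at T2, 2.72, 2.96 and 2.36 at T3, then 1.77, 1.95 and 3.73 at T4. Its later libraries were alike except for T4, whose values spanned those of T2 and T3.

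Peak14200 was the only peak of these 6 with all T3 values above those of T2 and T4. It had 2.02, 1.96 and 1.62 at T1, 4.43, 3.28 and 2.10 at T2, 4.61, 4.72 and 5.03 at T3, then 3.00, 2.98 and 4.26 at T4. T2 replicate 3 lay close to T1.

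Peak38158 had 2.96, 2.10 and 1.71 at T1, 5.36, 4.73 and 3.21 at T2, 4.50, 5.01 and 3.55 at T3, then 3.72, 3.91 and 5.08 at T4. Peak39848 had 3.54, 3.94 and 3.18 at T1, 8.14, 7.33 and 4.61 at T2, 4.35, 5.89 and 4.81 at T3, then 6.44, 4.84 and 5.51 at T4. Peak68250 had 1.29, 1.37 and 1.04 at T1, 4.57, 3.67 and 1.97 at T2, 2.76, 3.52 and 2.29 at T3, then 2.39, 2.80 and 3.83 at T4. In all of these, T2 replicate 1 was the highest library, T2 replicate 3 lay far below the other T2 libraries, and T3 replicate 2 was the highest of T3.

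**Figure D2:**
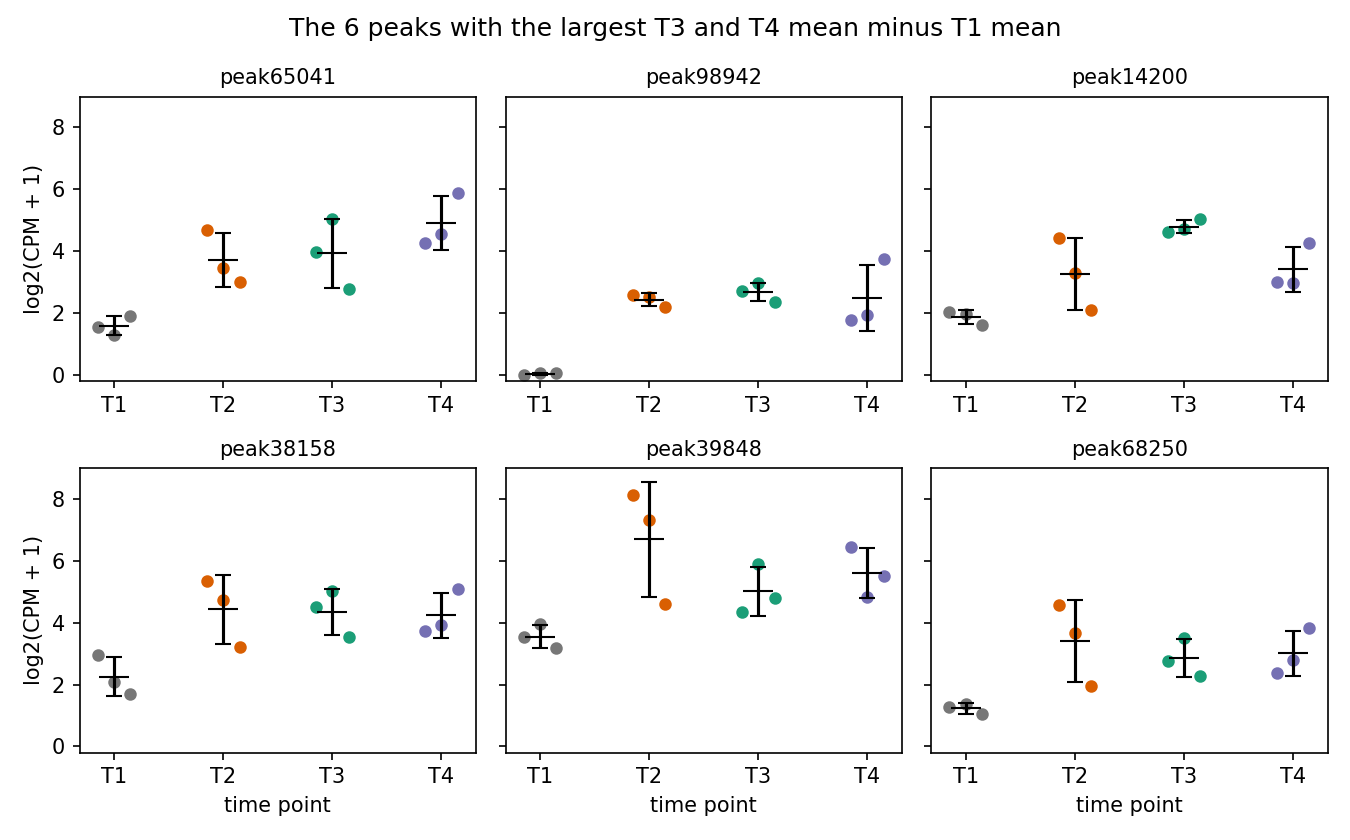
Accessibility, as log2(CPM + 1), of the 6 peaks with the largest difference between the T3 and T4 mean and the T1 mean, by time point. Points are single libraries in the order of replicates 1 to 3, the bar is the mean and the whiskers are 1 SD (n = 3). Peak39848 reaches 8.14 in T2 replicate 1 but 4.61 in T2 replicate 3, and peak98942 lies between 0 and 0.07 in T1.

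Of the 6 strongest members, 5 had differences of at most 0.74, and peak39848 was the exception. Peak92101 had the highest mean, with 5.38, 5.07 and 5.16 at T1, 6.46, 6.14 and 5.93 at T2, 5.87, 5.96 and 6.02 at T3, then 5.92, 6.27 and 5.59 at T4. Its counts ran from 319 to 1978, so counting error was small, and its lowest later value lay 0.21 above T1. The next, peak91963, peak14477, peak89652 and peak56300, had differences of 0.63, 0.66, 0.51 and 0.61 and lay only 0.042, 0.0028, 0.15 and 0.081 above the highest T1 value at their lowest. Peak39848 was also among the 6 largest differences.

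The widest separations from T1 after peak98942 (1.71) and peak65041 (0.87) were those of peak45172 (0.77), peak92899 (0.76) and peak29393 (0.68). Peak45172 had 2.39, 2.02 and 1.88 at T1, 4.29, 3.48 and 3.56 at T2, 3.16, 3.98 and 3.58 at T3, then 4.16, 3.89 and 3.49 at T4. Its 3 later time points overlapped, at means of 3.78 ± 0.45, 3.57 ± 0.41 and 3.85 ± 0.34 (SD, n = 3 each), against 2.10 ± 0.26 at T1. Peak92899 had 1.34, 1.43 and 1.29 at T1, 3.68, 3.21 and 2.76 at T2, 2.18, 2.83 and 2.33 at T3, then 2.67, 2.47 and 2.28 at T4. It was highest at T2 and lower at T3 and T4, and only T3 replicate 2 reached into the T2 range.

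The profile among the later time points was not used by the order of values, but the minimum was set on the T3 and T4 mean and not on T2. Comparisons of T3 and T4 with T2, here and in the tests below, were thus partly shaped by the choice and are a description. The members did not share 1 shape. The T4 mean was the highest of the 3 later means in 313 peaks (45.6%), the T2 mean in 241 (35.1%) and the T3 mean in 132 (19.2%). Which later mean was highest was not counted over all peaks. There the T4 mean lay above the T3 mean in 55.4%, and T4 minus T2 had a median of 0.13. The difference from T1 was already at least 0.5 at T2 in 557 peaks (81.2%), although the minimum was set on T3 and T4 only. The T2 mean exceeded the T1 mean by a median of 0.74 and by 0.09 to 3.14 over the set. Since T2 had to lie above T1 in all 3 libraries, this too was shaped by the choice.

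**Figure D3:**
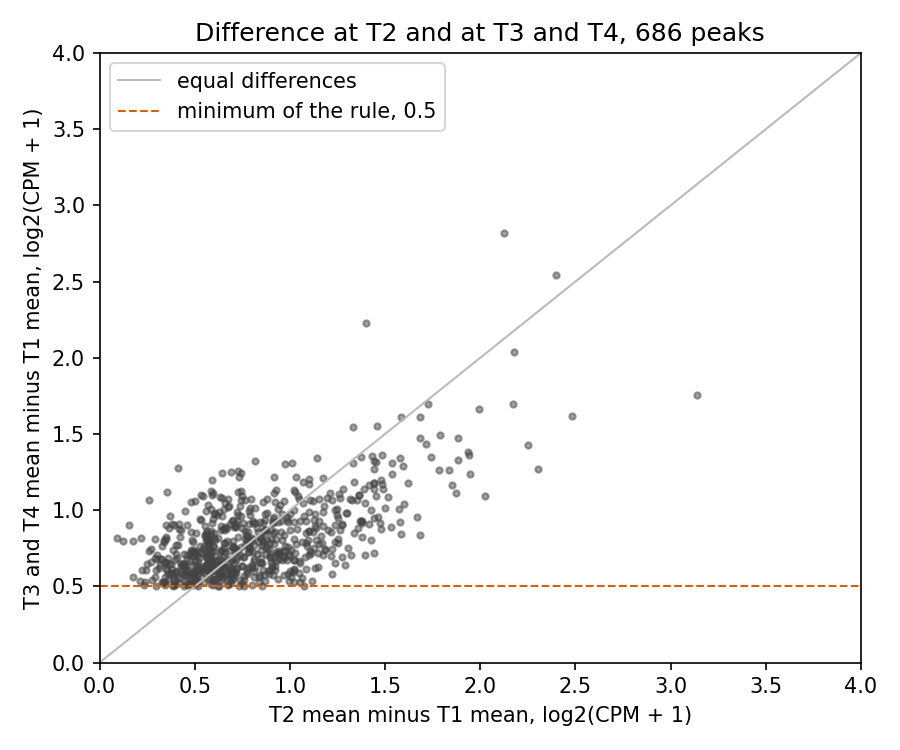
Difference from the T1 mean at T2 (x axis) and at T3 and T4 together (y axis) for the 686 peaks, in log2(CPM + 1). The dashed line is the minimum of 0.5 that the choice set on the y axis, and points above the grey line have a T3 and T4 mean above the T2 mean. This holds for 356 of the 686 peaks (51.9%, against 61.3% of all peaks), and the points scatter on both sides.

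About as many peaks had a higher as a lower mean after T2. The T3 and T4 mean lay above the T2 mean in 356 peaks (51.9%), against 61.3% of all peaks, and T4 minus T2 had a median of 0.04, against 0.13 over all peaks. The means increased in the order T2, T3, T4 in 165 peaks and decreased in that order in 127, and neither was counted over all peaks. All 6 T3 and T4 values lay above all T2 values in 7 peaks (1.02%, against 1.75% of all peaks) and below them in another 7 (1.02%, against 0.836%).

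With edgeR's quasi-likelihood test on the counts, fitted across all peaks and adjusted by Benjamini-Hochberg, called peaks had an adjusted p under 0.05 and a log2FC beyond 1. Called members numbered 0 in T3 versus T2 (0% of all peaks called, adjusted p 0.802 to 1.00), where 11 were higher and 39 lower at an unadjusted p under 0.05 and 5734 of all 92741 tested peaks passed it in either direction, and 0 in T4 versus T2 (0% of all peaks called, adjusted p 0.561 to 0.999), where 13 were higher and 16 lower and 8238 of all 93857 passed. The counts over all peaks were not split by direction, so the balance of higher and lower members has no background here. DESeq2 and edgeR's exact test called 0 members in these comparisons as well. Over all peaks they called 87 and 63 in T3 versus T2, and 80 and 19 in T4 versus T2. The median log2FC of the members in T3 versus T2 was -0.13, against 0.0047 over all peaks. It was -0.0075 without T2 replicate 1 (0.011 over all) and -0.06 without TMM (0.07 over all). For T4 versus T2 the median of the members was -0.06. It turned to 0.06 with library sizes without TMM and to 0.04 without T2 replicate 1 (0.04 over all). Leaving out TMM also moved the median of all peaks in T4 versus T2, to 0.17 against 0.03 with TMM, so that the members lay below all peaks under either scaling.

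The choice of the peaks treated T3 and T4 alike, but it used the values of both. T4 varied more within the time point than T3, with a median SD of 0.52 against 0.31 over all peaks, and the minimum was set on their joint mean. T4 versus T3 is therefore given as a description as well. In T4 versus T3, the quasi-likelihood test called 0 of the 686 members (0% of all 94313 tested peaks called, adjusted p 0.830 to 1.00). At an unadjusted p under 0.05, 18 members were higher and 2 lower in T4, and 5205 of all tested peaks passed that threshold in either direction. The count over all peaks was not split by direction, so the balance of 18 and 2 has no background here. DESeq2 and the exact test also called 0 members, of 4 and 2 peaks called. The members' median log2FC was 0.07 (0.01 over all tested peaks) and 0.12 with DESeq2 (0.07 over all). It was -0.06 without T4 replicate 3 (0.01 over all) and 0.0052 without T3 replicate 3 (0.016 over all). It was thus small and depended on single libraries.

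By order alone, all 3 T4 values lay above all 3 T3 values in 40 members (5.83%), against 2.81% of all peaks, and below them in 18 members (2.62%), against 4.62% of all peaks. The T4 mean exceeded the T3 mean in 427 members (62.2%), against 55.4% of all peaks, by a median of 0.10 against 0.06. The spread of T4 replicate 2 and T4 replicate 1 moved with this and its part was not tested.

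Within the time points the members varied most at T4. The SD over the 3 replicates had a median of 0.18 for T1, 0.28 for T2, 0.28 for T3 and 0.38 for T4, against 0.27, 0.23, 0.31 and 0.52 over all peaks. The members were thus looser than peaks in general at T2. They were tighter at T3, at T4 and at T1, where the order of values favoured close T1 replicates. The order also cut off low replicates at T2, T3 and T4, so the SDs of all 4 time points were shaped by the choice. T4 replicate 2 was the highest of the 9 later libraries in 190 members and T2 replicate 1 in 182, while T2 replicate 3 was the lowest in 169.

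The height of T4 replicate 2 depended on the level of the peak. In the 229 weakest members, with a mean of 0.70 to 2.15, the median difference of T4 replicate 2 from the T1 mean was 1.12, and it was the highest of the 9 later libraries in 98. In the 228 members of middle level the median was 0.90 and the library was highest in 59, and in the 229 strongest, with a mean of 2.99 to 5.81, these were 0.74 and 33. T2 replicate 1 went the other way, with 0.80 in the weakest and 1.00 in the strongest members. The median difference of T3 and T4 from T1 varied little with level, at 0.76, 0.77 and 0.73 from the weakest to the strongest.

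The members whose T4 mean most exceeded the T2 mean were all weak peaks with T4 replicate 2 far above the rest. Peak72833 had 0.33, 0.30 and 0.33 at T1, 0.53, 0.91 and 0.59 at T2, 0.67, 0.38 and 1.14 at T3, then 1.98, 3.74 and 0.71 at T4. Peak26364 and peak27025 had 3.69 and 3.74 in T4 replicate 2, where T4 replicates 1 and 3 had 2.04 and 1.44 for peak26364 and 1.58 and 1.31 for peak27025. Behind the values of T4 replicate 2 stood 52, 50 and 52 reads. The size of the late increase in these 3 peaks therefore leaned on T4 replicate 2, their highest library. All T4 values still lay above T2 in peak26364 and peak27025, whose highest T2 values were 1.23 and 1.19. In peak72833 T4 replicate 3 lay within the T2 range.

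The members whose T4 mean lay farthest below the T2 mean were stronger, and their T2 libraries were high together or in part. Peak27693 had 2.99, 4.09 and 2.86 at T1, 5.92, 5.51 and 5.43 at T2, 4.43, 4.88 and 4.91 at T3, then 4.74, 4.29 and 4.25 at T4. Every T2 value lay above every T3 and T4 value, and these in turn lay above T1 by as little as 0.15. Peak94627 had 2.52, 2.51 and 2.48 at T1, 5.70, 5.17 and 4.09 at T2, 4.57, 4.92 and 3.60 at T3, then 3.90, 3.03 and 4.69 at T4, so that its later time points overlapped. Peak39848, described above, was the third.

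Calls against T1 are given with the share of all peaks called, and nothing is read from them because the values of T1 chose the peaks. In T2 versus T1 the quasi-likelihood test called 25 of the 669 members tested as higher, of 40 peaks called higher among 92360 tested (0.0433%). In T3 versus T1 it called 2 of 668 members, the only peaks called higher among 93444 (0.00214%). In T4 versus T1 it called 0 of 685 members and 0 higher of 94355 (0%). At an unadjusted p under 0.05, 364 members were higher and 0 lower, and 11440 of all tested peaks passed that threshold in either direction. DESeq2 called 29 members, of 198 peaks called higher, and the exact test 10, of 68 called higher. For the mean of T2, T3 and T4 against T1 in 1 fit of 12 libraries, the quasi-likelihood test called 1 of 684 members. It was the single peak called higher (0.00106%).

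The 25 members called at T2 had a log2FC of 1.20 to 6.92 with a median of 1.88, and their T3 and T4 mean exceeded the T1 mean by 0.54 to 2.55 with a median of 0.95. The number was not stable, and it moved together with the calls over all peaks. Without T2 replicate 3 it was 203, of 841 peaks called higher among 92042, and without T1 replicate 3 it was 1, of 2 called higher among 92173. In T4 versus T1, 111 members were called without T4 replicate 3, when 6805 peaks were called higher and 6630 lower among 94261.

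Peak98942 was the member called in the most comparisons. By edgeR's quasi-likelihood test its log2FC was 6.92 in T2 versus T1 (adjusted p = 0.00782) and 7.16 in T3 versus T1 (adjusted p = 0.00423). In T4 versus T1 it was 7.29 by the same test (adjusted p = 0.389). These fitted values rest on 2 reads at T1 and are no bound on the change. For the mean of T2, T3 and T4 the adjusted p of peak98942 was 0.0173, and it ran from 0.000499 to 0.195 when single libraries were left out.

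Peak14200 was the other peak called at T3, with a log2FC of 3.28 ± 0.25 (SE, adjusted p = 0.00195) by the quasi-likelihood test. At T2 and T4 its log2FC was 2.05 ± 0.52 (adjusted p = 0.139) and 1.98 ± 0.50 (adjusted p = 0.389) by the same test. The SE was not fitted, but was taken as the log2FC divided by the square root of the F statistic of the test.

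Of the members called at T2 alone, peak45172, peak92899, peak12603 and peak23536 ranked first by the fit of 12 libraries. Their log2FC in T2 versus T1 was 2.04, 2.49, 2.76 and 2.51, with adjusted p of 0.0427, 0.0292, 0.0270 and 0.0411 by the quasi-likelihood test. Peak12603 had 1.56, 0.88 and 0.85 at T1, 3.06, 3.05 and 3.16 at T2, 2.90, 1.99 and 3.04 at T3, then 2.10, 3.19 and 3.35 at T4. Its T2 libraries were almost equal, while T3 replicate 2 and T4 replicate 1 lay about a unit lower than the other libraries of their time points. Peak23536 had 1.01, 1.52 and 1.04 at T1, 3.40, 3.00 and 2.83 at T2, 1.96, 2.99 and 2.33 at T3, then 2.69, 2.47 and 2.69 at T4, with T2 highest and only T3 replicate 2 within its range.

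The number of peaks that follow such an order was then compared over all 220 sets of 3 libraries put in the place of T1, with the mean of the other 9 libraries at least 0.5 above the mean of the 3. The T1 set gave 691 peaks and ranked 22nd, so that 21 sets gave more. The median of the other sets was 193, and the range over all sets was 21 to 2821. The sets made of the 3 replicates of T2, T3 and T4 gave 511, 123 and 689. The T4 set thus came within 2 peaks of the T1 set, and T1 was not the set with the most peaks.

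The most peaks were found with T3 replicate 3, T4 replicate 1 and T4 replicate 2 in the place of T1 (2821), followed by T3 replicate 2, T4 replicate 1 and T4 replicate 2 (2091) and by T1 replicate 2, T1 replicate 3 and T3 replicate 1 (2040). The first of these sets is made of libraries with a small spread over all peaks, and the last of libraries with a wide one. Of the 21 sets that gave more peaks than T1, 10 held T3 replicate 1, 9 held T1 replicate 3, and 8 each held T4 replicate 1 and T4 replicate 2. All 21 mixed libraries of different time points.

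**Figure D4:**
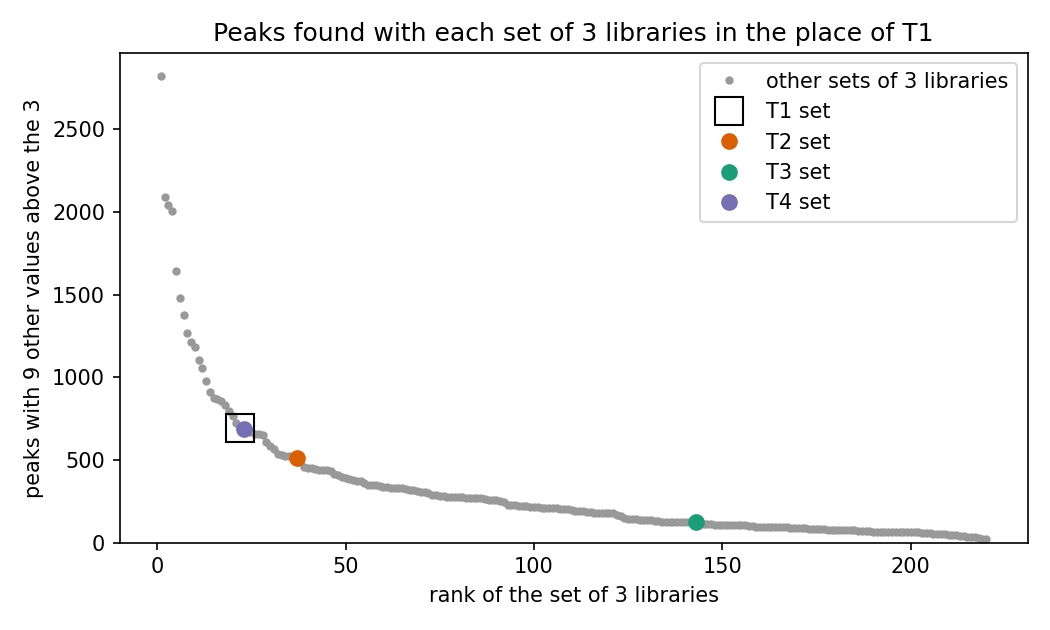
Number of peaks whose 9 other libraries all lie above the 3 libraries of a set, with a mean at least 0.5 higher, for each of the 220 sets of 3 libraries in falling order. The 4 marked sets are the time points, of which T1 (open square, 691) and T4 (689) almost coincide, T2 has 511 and T3 has 123.

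Values brought to the same distribution in every library (quantile normalised, an alternative added after the data were seen) removed the differences in spread. The T1 set then gave 519 peaks and ranked 24th of 220, and the T4 set 1009. By the original rule 527 peaks were found, of which 279 were among the 686 (40.7% of the set and 52.9% of the 527).

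The membership of a peak depended on the scaling more than the number did. TMM-scaled library sizes gave 561 peaks, 455 of them in the set, and DESeq2 size factors gave 619, 473 of them in the set. All libraries were also thinned to the 4199681 reads of the shallowest, an alternative added after the data were seen. In a single random draw 504 peaks were found and 237 were in the set (34.5% of it). No other draw was made, so which peaks are found after thinning, here and below, can differ from draw to draw. Of the 686 peaks, 101 were found under all 4 of these alternatives and 115 under none.

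The 101 peaks found under all 4 had a median difference of 0.94 and lay a median of 0.26 above the highest T1 value, against 0.60 and 0.05 for the 115 found under none. Among the 6 peaks with the largest difference, 5 were found under all 4, and peak14200 was missed only after thinning. Peak45172, peak29393, peak12603 and peak23536 were also found under all 4. Of the 6 strongest peaks only peak39848 was, and of the 25 members called in T2 versus T1, 13 were.

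Leaving out 1 library at a time raised the number most for T1. Without T1 replicate 1 the rule found 3074 peaks, without T1 replicate 3 it found 1383 and without T1 replicate 2 it found 1172, while leaving out T3 replicate 1 gave 1045 and the other 8 libraries 719 to 942. Fewer values to order make the rule easier to meet. Of the 686 peaks, 657 were found again without T1 replicate 1 and 629, the fewest, without T4 replicate 2. Leaving out a library cannot break an order that was already met, so only the minimum difference could remove a member. All 686 were therefore found again without any T2 library, and these counts do not measure how stable the membership was.

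Peaks with neighbouring numbers were in the set together more often than distant ones. The members fell into 650 single peaks and 18 runs of 2 consecutive numbers. At a number 1 away from a member, 36 of 1372 neighbours were members (2.62%), at 2 away 24 (1.75%), and at 5 and at 10 away 8 each (0.583%), against 0.724% of all peaks. Each pair of members was counted from both sides, so the 36 neighbours at 1 away make up the 18 runs. Whether consecutive numbers are neighbours in the genome is not given in the sources used here. Over all peaks the median correlation across the 12 libraries was 0.27 at a number distance of 1, 0.18 at 2, 0.10 at 5, 0.06 at 10 and 0.04 at 1000, so close numbers shared part of their variation among libraries.

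The neighbours outside the set are those that did not meet the rule, so their own values also decided their place. Those 1 number away had a T3 and T4 mean above the T1 mean by a median of 0.21, and 73.2% of them were higher in T3 and T4. At 2 numbers away the median was 0.16, at 5 it was 0.11 and at 10 it was 0.10, against 0.09 and 59.8% over all peaks. The values of neighbours come from the same libraries as those of the members, so they are a description and no separate sample. Across the range of numbers, the share of peaks in the set lay between 0.55% (numbers from 50000) and 0.85% (numbers from 10000) in full blocks of 10000.

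**Figure D5:**
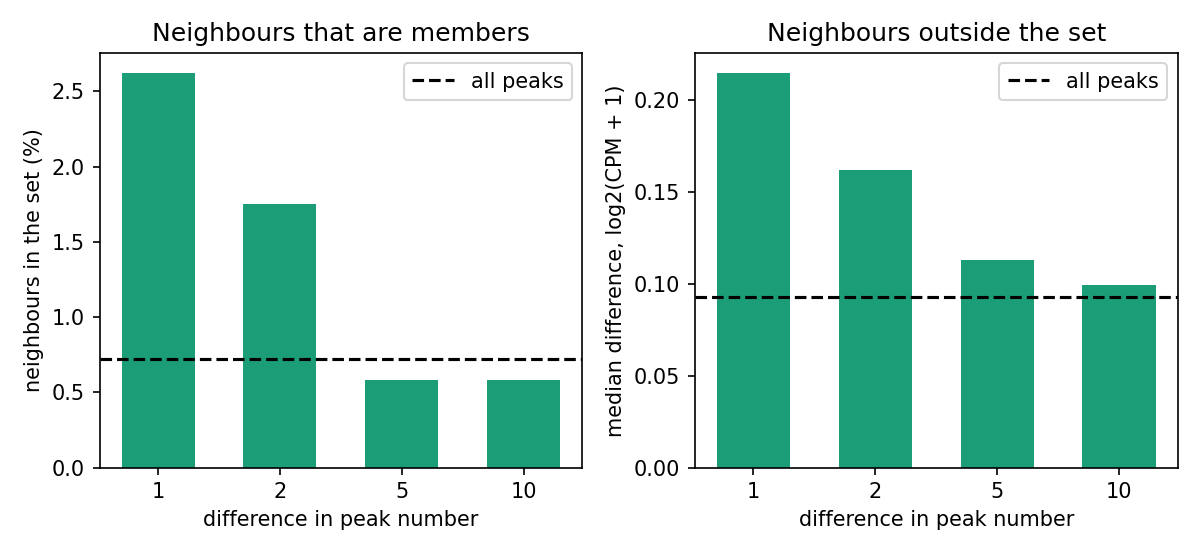
Left, share of peaks at a number 1, 2, 5 or 10 away from a member that are members too, in percent. Right, median over the neighbours outside the set of the T3 and T4 mean minus the T1 mean, in log2(CPM + 1). Dashed lines mark all peaks (0.724% and 0.09), and bars fall to about that level by a distance of 5 to 10.

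The first 3 of the 18 runs show how far neighbours moved together. Peak16011 had 1.79, 1.96 and 1.83 at T1, 2.63, 2.01 and 2.72 at T2, 2.19, 2.36 and 2.84 at T3, then 3.16, 2.27 and 2.95 at T4. Peak16012 had 1.83, 1.5 and 1.71 at T1, 1.86, 1.97 and 2.22 at T2, 2.04, 2.24 and 2.25 at T3, then 2.65, 3.72 and 1.92 at T4. T4 replicate 2 was the highest library of peak16012 but one of the lower later libraries of peak16011.

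In the next run the peaks differed in size of change. Peak16621 had 2.22, 3.00 and 2.43 at T1, 4.39, 4.05 and 4.08 at T2, 3.56, 3.64 and 4.43 at T3, then 3.50, 3.19 and 4.08 at T4, a difference of 1.18 between T3 and T4 and T1. Peak16622 had a difference of 0.56, with 2.55 to 3.03 in the 9 later libraries against 2.16 to 2.42 in T1. In the last run peak19483 had 2.76 to 3.25 in the later libraries against 2.36 to 2.48 in T1, and peak19484 had 2.89 to 3.85 against 1.93 to 2.85.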

How the data were processed

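Accessibility was measured by ATAC-seq in 12 liver libraries, and time point and replicate were taken from the sample labels. The authors mapped reads with Bowtie2 2.3.5.1, found peaks by MACS2, and obtained read counts per peak from HTSeq 0.11.1, as the methods and the submitters' processing notes give it. They deposited whole-number counts per peak and library without normalization. They also deposited log2 values, which equal log2(CPM + 1) of these counts to within 4.62e-14. A peak had to be found in at least 2 replicates. The peaks and all lists were chosen with earlier results of these data known.

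The rule was applied to the deposited log2 values. Counts were tested in R 4.3.3 with edgeR 4.0.16 (TMM, quasi-likelihood test, Benjamini-Hochberg over all tested peaks) in the 6 libraries of each pair of time points, keeping peaks that exceeded a CPM of 1 in 2 or more libraries (3 or more in the fit of 12). A call needed an adjusted p under 0.05 together with a log2FC beyond 1 in either direction. The procedure was tested on simulated counts with the same peak profile in all libraries apart from planted changes. Differences in spread between libraries were not part of the simulation. p-values rest on the spread between libraries of fish from 1 management group. In that spread, differences between fish and between library preparations cannot be told apart. Individual peaks were named by rule: the 6 largest differences, the 6 highest means, the 5 widest separations from T1, 3 on each side of the minimum, 3 each with the largest T4 increase and decrease against T2, the first 3 runs of numbers and the 5 called most often. The 2 members with at most 3 reads in T1 besides peak98942 were named after their values were seen.

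Alternatives were TMM and DESeq2 1.42.0 scaling, pseudocounts of 0.5 and 2, filters, other minimum differences, the exact test, DESeq2, 1 fit of 12 libraries, a replicate block and leaving out each library. Quantile normalised and thinned values were added after the data were seen. Positions, genes and sequences were not analysed here.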

Additional observations from a re-analysis of the deposited data

How the results depend on the processing

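The number of peaks was within 1.5 times 686 for all scalings, pseudocounts, filters and added alternatives, from 504 to 724. Without a minimum difference it was 835. A minimum difference of 1 left 132 with a median difference of 1.14, and thinning gave a median of 0.88. Leaving out 1 library gave 719 to 3074 peaks and medians of 0.69 to 0.85. Calls of the 686 members in T2 versus T1 (25) became 234 with DESeq2 and 225 with the exact test, of 716 and 677 peaks called higher. They were 38 with at least 10 counts in every library and 63 with the replicate block, of 65 and 164 called higher. In 1 fit of 12 libraries they were 0, and without single libraries 1 to 203. In T3 versus T1 (2) they became 68 with DESeq2 and 58 with the exact test, of 180 and 150 peaks called higher. At least 10 counts gave 1, of 2 called higher, and the fit of 12 gave 1, the only peak called higher. Leaving out single libraries gave 2 to 6. In T4 versus T1 (0) DESeq2 gave 29, the exact test 10 and the replicate block 11, of 198, 68 and 225 peaks called higher. Leaving out single libraries gave 0 to 111 (111 without T4 replicate 3, of 6805 called higher). For the mean of T2, T3 and T4 versus T1 (1) DESeq2 gave 155, of 214 peaks called higher. The likelihood ratio test of edgeR gave 90, of 107 called higher, while at least 10 counts and the replicate block gave 0. Leaving out single libraries gave 0 to 66 (66 without T4 replicate 3, of 99 called higher). T4 versus T2 (0) gave 0 to 38 without single libraries (38 of 685 members without T4 replicate 3, when 15155 of all 93658 peaks were called), and T3 versus T2 and T4 versus T3 stayed at 0. Over all peaks the calls in T2 versus T1 were 89 by the quasi-likelihood test, 1520 by DESeq2 and 1502 by the exact test. The cause of these changes was not tested. The members' median log2FC changed sign in T4 versus T2 (-0.06, but 0.06 without TMM and 0.04 without T2 replicate 1) and in T4 versus T3 (0.07, but -0.06 without T4 replicate 3). Fish were sacrificed at each time point, so a replicate number does not join the same fish across time points, and the replicate block has no basis in such a pairing. Deviations from the time point means correlated between -0.47 and 0.28 (median -0.10, 18 pairs) for the same number. For different numbers they correlated between -0.45 and 0.54 (median 0.04, 36 pairs). Such deviations cancel out within a time point, so these correlations decide nothing about a shared batch.

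T4 replicate 2 with 4199681 reads gives the least precise values, and 596 of the 686 members had at least 10 reads in every library. Without positions, 2 members may be parts of the same open region.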
